A study of Mus musculus with 9 samples.

Results

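The genes described here come from protein families that dock, prime and fuse synaptic vesicles. Some of them work on other membranes, among them syntaxins of endosomes and the Golgi. The families are the synaptotagmins, the syntaxins and SNAP-25 family, the vesicle-associated membrane proteins (VAMPs), the SV2 proteins, synapsins and synaptogyrins. The complexins, Rab3 GTPases, RIM, Munc13 and syntaxin-binding proteins are also included. The genes were chosen by the family names in their gene symbols. Of the 17097 mouse genes that the array platform names by a probe set of that gene alone, 68 belonged to these families, with 142 probe sets. In 37 of the 68 genes several probe sets were present, and the brightest then stands for the gene unless another is named.

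A neuron stores transmitter in vesicles and releases it when calcium enters the nerve ending. VAMP on the vesicle zips together with syntaxin-1 and SNAP-25 on the plasma membrane into a SNARE complex, Munc18 and Munc13 proteins guide that assembly, complexins clamp and promote it, and synaptotagmin-1 or a relative senses the calcium that triggers fusion. Dopamine neurons of the substantia nigra use this machinery in the striatum, where their axons end, and also release dopamine from their cell bodies and dendrites. Transcripts dissected with the substantia nigra come from its dopamine and GABA neurons, from glia and from any neighbouring tissue in the sample, and hardly from the incoming nerve endings, whose cell bodies lie elsewhere.

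The samples came from Swiss Webster mice that were injected intraperitoneally with saline, with 1 mg/kg methylphenidate (MPH) or with 10 mg/kg MPH, once on each school day for 3 months from the age of 4 weeks, and then left without drug for a week. MPH is a stimulant that blocks the dopamine and noradrenaline transporters. RNA of the dissected substantia nigra was measured on 9 Affymetrix arrays (HT MG-430 PM), 3 in each group, and the values are log2 intensities on the scale of Robust Multichip Average (RMA). No source used here says whether an array holds 1 mouse or a pool, or the sex of the mice, so p-values measure only the spread between arrays, which may be technical. Doses are given here as the deposited samples are labelled. The study's own gene lists pair the doses with these arrays the other way round, so the group called MPH 1 mg/kg here may have received 10 mg/kg and the reverse, while each comparison with saline keeps its values.

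The arrays carried RNA of dopamine neurons in every group, and marker levels differed between groups and between arrays. Th, the rate-limiting enzyme of dopamine synthesis, lay between 10.99 and 11.18 in the saline arrays, between 10.31 and 10.53 in the MPH 1 mg/kg arrays and between 10.45 and 10.63 in the MPH 10 mg/kg arrays. The mean of 13 dopamine neuron markers, of which 1 (Pitx3) was near background, was 8.86 to 9.16 in the saline arrays, 8.38 to 8.5 in the MPH 1 mg/kg arrays and 8.51 to 8.6 in the MPH 10 mg/kg arrays. In bulk RNA, fewer cells of a type and less RNA per cell cannot be told apart. Markers of neighbouring regions were uneven within groups. The 5 thalamus markers averaged 7.68 in MPH 10 mg/kg array 1 and 7.46 in saline array 2, against 8.21 to 8.95 in the other 7. Of these 5 markers, 4 were lowest of all arrays in saline array 2, while Calb2 was highest in these same arrays (9.94 in MPH 10 mg/kg array 1 and 10.54 in saline array 2, against 8.74 to 9.71). The 9 cortex and hippocampus markers, 3 of them near background, averaged 6.82 in MPH 10 mg/kg array 1, against 5.69 to 6.01 in the other 8, with 7 of them highest in that array and 2, Cux2 and Rasgrf2, lowest there. The mean of the 3 serotonin markers of the raphe ran between 4.58 and 6.83 in the saline arrays, between 3.76 and 4.23 in the MPH 1 mg/kg arrays and between 3.98 and 5.22 in the MPH 10 mg/kg arrays. The log2 signal at the 3′ end of Actb exceeded that at its 5′ end, a measure of RNA quality, by 0.88 to 0.93 in the saline arrays, 1.04 to 1.19 in the MPH 1 mg/kg arrays and 1.03 to 1.12 in the MPH 10 mg/kg arrays. The mean of 8 oligodendrocyte markers was 10.79 to 10.87 in the saline arrays, 10.58 to 10.97 in the MPH 1 mg/kg arrays and 10.41 to 10.71 in the MPH 10 mg/kg arrays. In every MPH 10 mg/kg array this mean was below saline, as were Mog, Mag, Cnp and Ermn. Mbp and Mobp overlapped with saline there. Mal and Cldn11 were above all saline arrays in MPH 10 mg/kg arrays 2 and 3. The mean of 9 general neuron markers, which include the member Snap25, lay between 10.7 and 10.89 in all 9 arrays. Of these markers, Tubb3 was lower than saline in every MPH array (10.09 to 10.27, against 10.37 to 10.41). The others overlapped with saline in at least 1 MPH group. The part of these differences in the results below was not tested. For some members, values without saline array 2 and MPH 10 mg/kg array 1, the lowest in the thalamus mean, are given. Among the arrays then left, saline still lay above every MPH array in the dopamine neuron and raphe means, and below them in the Actb difference. Such values therefore do not test the part of those differences.

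The promoters of the members were read from RefSeq (GRCm38.p6) as windows of 250 bases before and 50 bases after each annotated start, and 51 of the 68 members had at least 1 window. The GC box GGGCGG, searched on both strands, was found in 40 of these 51 genes (78.4%), against 57.4% of the 13514 measured genes with a window and 38.2% of all 27025 genes of the table. The cyclic AMP response element TGACGTCA was found in 2 of 51 (3.92%, against 2.94% of measured genes) and TATAAA in 4 of 51 (7.84%, against 11.8%), on either strand. No motif contains another, and a match describes the letters of the window, not a site in use. The promoters of Syngr1 and Snap47 are shown because, of the 5 members lower than saline in every MPH array, they had the smallest p in MPH 1 mg/kg, with GC boxes in capitals on the strand of the gene (CCGCCC where the box lies on the other strand). Each held 1 GC box and neither held TGACGTCA or TATAAA, and 72.3% of the bases were G or C in Syngr1 and 65.0% in Snap47. Among the others of these 5, Stx7 had a GC box in both of its windows and Stx5a in 1 of 2.
Syngr1, chr15:80091084-80091383, plus strand: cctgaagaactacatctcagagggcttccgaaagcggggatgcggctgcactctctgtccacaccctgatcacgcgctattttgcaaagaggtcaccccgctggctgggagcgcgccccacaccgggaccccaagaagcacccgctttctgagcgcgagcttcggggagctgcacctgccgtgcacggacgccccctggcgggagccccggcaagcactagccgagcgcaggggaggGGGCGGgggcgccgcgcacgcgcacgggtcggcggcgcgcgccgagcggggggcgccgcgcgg
Snap47, chr11:59449985-59450284, minus strand: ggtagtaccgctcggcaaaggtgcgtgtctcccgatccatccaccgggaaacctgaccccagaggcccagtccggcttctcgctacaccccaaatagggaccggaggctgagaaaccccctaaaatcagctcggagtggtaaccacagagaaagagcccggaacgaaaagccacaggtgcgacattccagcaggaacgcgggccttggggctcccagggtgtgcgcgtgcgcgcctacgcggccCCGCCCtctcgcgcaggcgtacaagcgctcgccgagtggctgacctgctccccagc

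Most of the machinery was detected in the substantia nigra. Control probe sets that match no mouse transcript had a median of 3.0 over 43 sets, and a member whose mean over the 9 arrays was at most 4.0 is called near background here. This held for 9 of the 68 members, Cplx3, Cplx4, Stx11, Stx19, Syngr4, Syt6, Syt8, Syt10 and Unc13d, for which a difference between groups was not detectable at these intensities. Levels of different probe sets depend on their probes and are not amounts of RNA that can be ranked, so only their place above background is read.

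Among the 15 synaptotagmins, which sense calcium or, in relatives such as Syt11 and Syt13, lack calcium binding, Syt1 had a mean of 12.39 over the 9 arrays, Syt11 of 12.10, Syt7 of 11.30 and Syt4 of 11.16, while Syt2, the fast sensor of many hindbrain and inhibitory neurons, had 7.94. Of the plasma membrane SNAREs, Snap25 had a mean of 12.60, Snap47 of 11.13 and Stx1a, a syntaxin of the release site, of 5.37. The means of the vesicle SNAREs Vamp1, Vamp4, Vamp7 and Vamp2 were 10.45, 9.97, 9.96 and 9.90, and those of Vamp3 and Vamp5 were 5.42 and 5.36. Snap91, a clathrin adaptor of vesicle recycling, Sv2a, a vesicle glycoprotein, and Syngr1 had 11.62, 11.57 and 10.43. Cplx1, a complexin, had a mean of 12.96, and the 8 syntaxins of endosomes, Golgi and endoplasmic reticulum lay between 7.76 and 10.73.

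**Figure D1:**
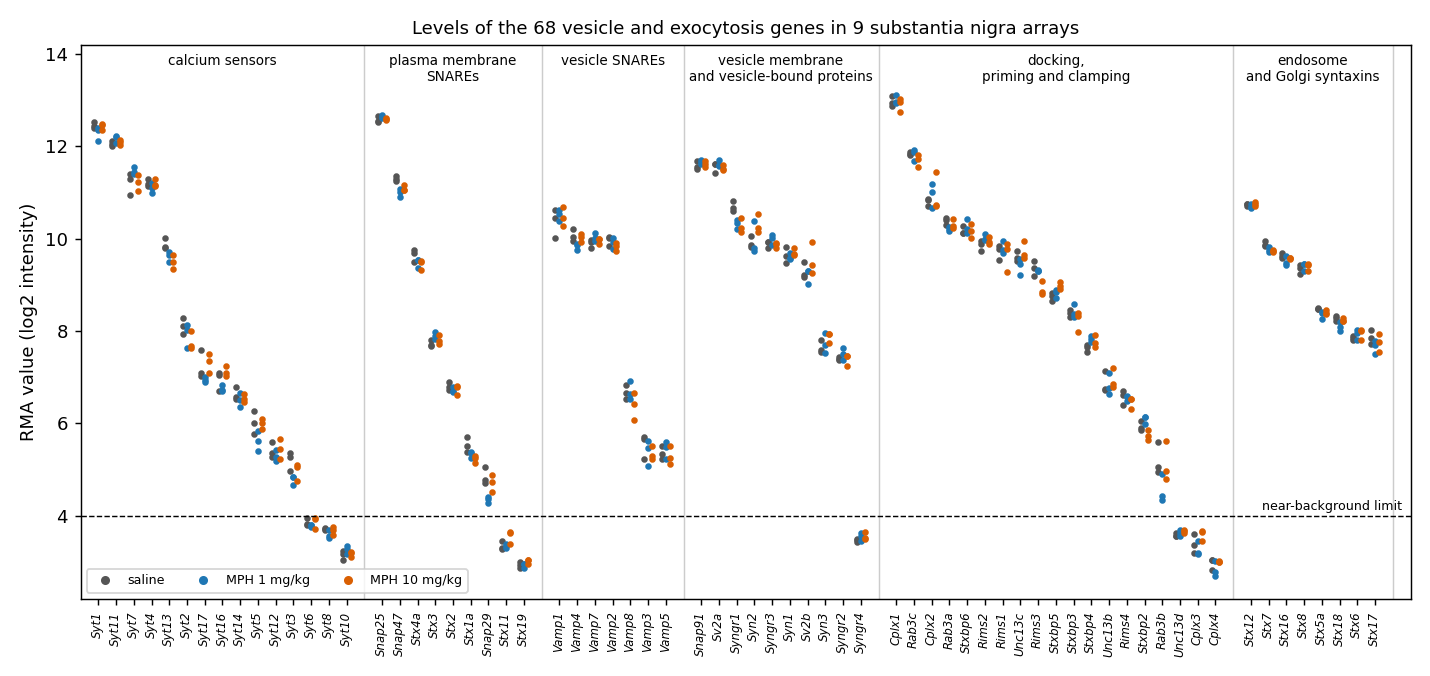
RMA log2 intensity (vertical axis) of the 68 members in each of the 9 arrays, grouped by role and coloured by group, with the near-background limit of 4.0 as a dashed line. The points of the 3 groups lie on top of each other for most members, and 9 members lie under the line.

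No member passed limma at an adjusted p of 0.05 in any comparison, and neither did any other probe set. With MPH 1 mg/kg against saline 0% of 45037 probe sets passed and the lowest adjusted p among the members was 0.392, with MPH 10 mg/kg against saline 0% passed and the lowest was 0.414, and with MPH 10 mg/kg against MPH 1 mg/kg 0% passed and the lowest was 0.774. At an unadjusted p of at most 0.05, the probe sets higher and lower numbered 2038 and 2599, 1837 and 2481, and 1353 and 1526 in these comparisons. Without the replicate number in the model, 0.12%, 0.255% and 0% of probe sets passed in these comparisons, and still 0 members, of which Snap47 came nearest with an adjusted p of 0.0778 in MPH 1 mg/kg against saline. What follows describes the sizes of the differences and their intervals, with unadjusted p-values of limma as a guide to order only.

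The median log2 difference over the 68 members was -0.035 in MPH 1 mg/kg against saline and -0.017 in MPH 10 mg/kg against saline, beside -0.021 and -0.02 over all 17097 genes. Differences of at most 0.2 in either direction were measured for 57 members (83.8%) with MPH 1 mg/kg and 53 members (77.9%) with MPH 10 mg/kg, against 81.5% and 81.7% of all genes. For 52 and 53 members the 95% interval lay wholly within 0.5 of 0 on the log2 scale.

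At an unadjusted p of 0.05 or less, 9 members were lower and 0 higher in MPH 1 mg/kg than in saline arrays. Over all genes 7.4% were lower and 3.32% higher, beside 13.2% and 0% of members. In MPH 10 mg/kg arrays, 5 members (7.35%) were lower and 1 (1.47%) higher, close to the 6.95% and 3.28% of all genes. Among genes above background the share lower was 9.2% for MPH 1 mg/kg and 8.58% for MPH 10 mg/kg. Among the 59 members above background it was 15.25% and 8.475%, and no test of the list was made. The 9 members lower in MPH 1 mg/kg were 5 without saline array 2 or without saline array 3, and 4 without MPH 1 mg/kg array 2.

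All 3 arrays of MPH 1 mg/kg lay below all 3 saline arrays for 13 members and above them for 3, where 15.3% and 8.97% of all genes did so (19.1% and 4.41% of members). For MPH 10 mg/kg this held for 9 members below and 3 above, against 15.8% and 8.75% of all genes (13.2% and 4.41% of members). Such a separation has an exact two-sided permutation p of 0.1, the smallest that 3 arrays against 3 can give. In both MPH groups 5 members lay below saline in every array, Snap47, Stx5a, Stx7, Syngr1 and Syt13, and 0 lay above, where 7.8% of all genes lay below in both and 3.4% above (7.35% and 0% of members). These comparisons share the saline arrays, and the share of members below is near that of all genes.

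**Figure D2:**
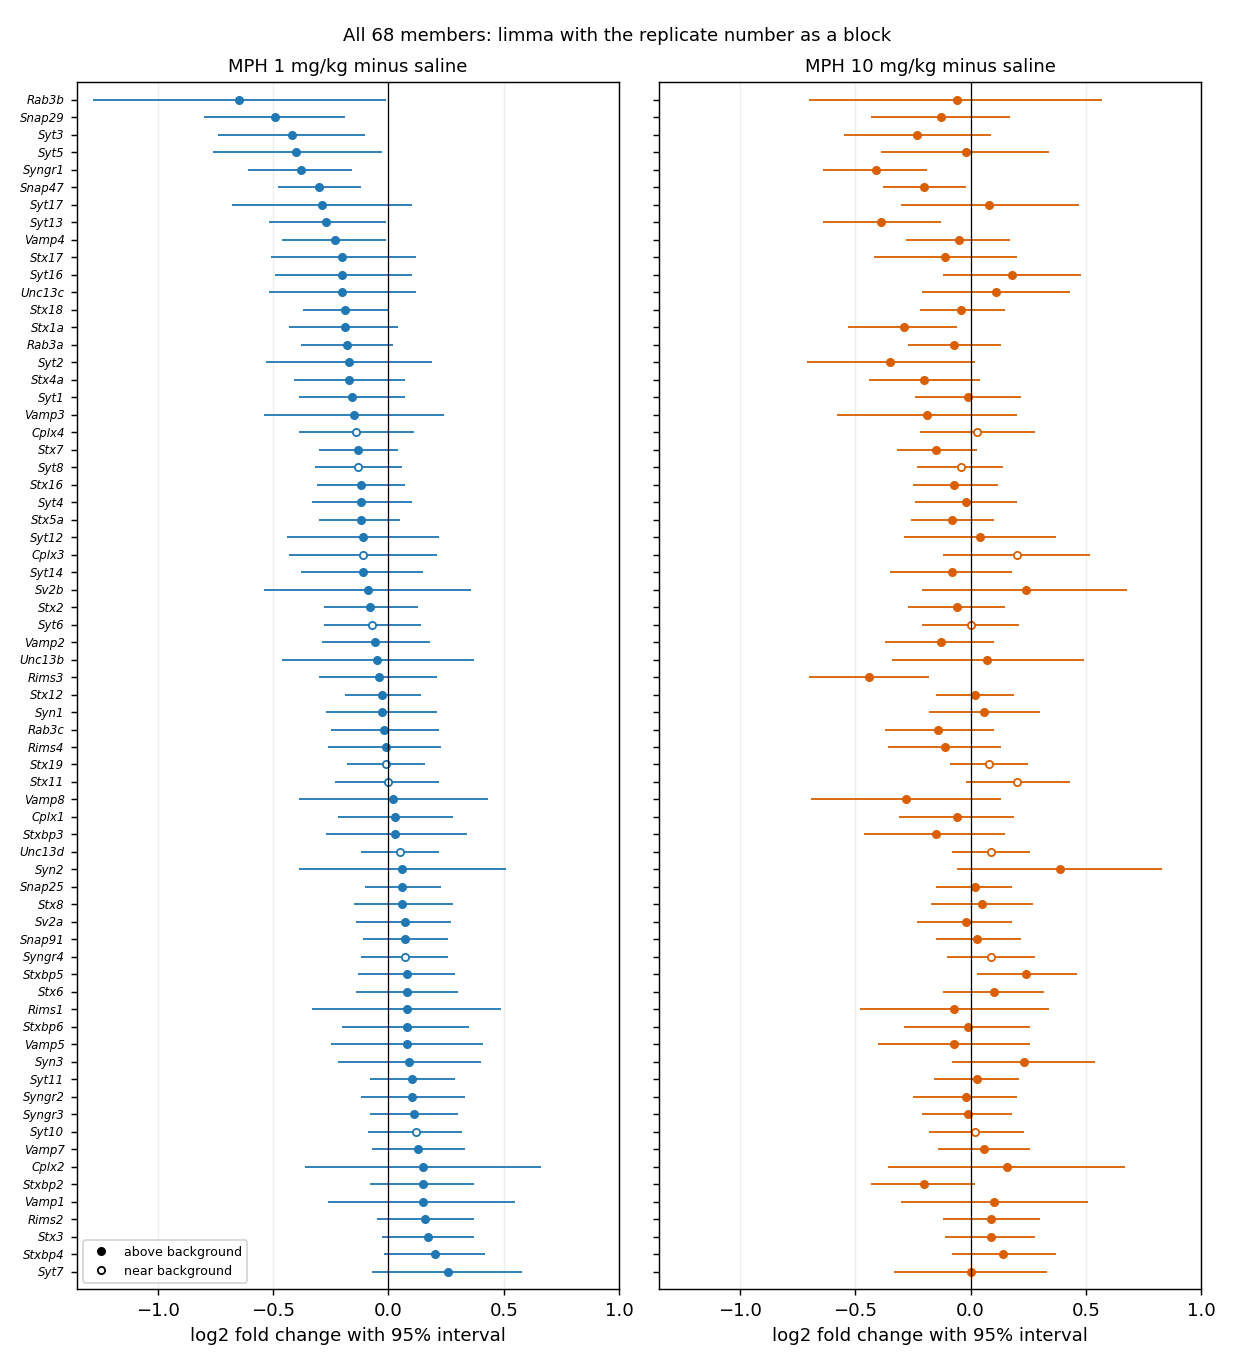
Log2 fold change (horizontal axis) with its 95% interval for each of the 68 members, MPH 1 mg/kg minus saline on the left and MPH 10 mg/kg minus saline on the right, with open points for members near background. Most intervals cover 0, and those of Syngr1, Snap47 and Syt13 lie below 0 on both sides.

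Of the proteins of the vesicle membrane, Syngr1 had the smallest p in MPH 1 mg/kg and in MPH 10 mg/kg. It encodes synaptogyrin-1, a membrane-spanning protein of synaptic vesicles. Its values were 10.67, 10.81 and 10.60 in saline arrays, 10.40, 10.20 and 10.33 in MPH 1 mg/kg arrays and 10.44, 10.24 and 10.15 in MPH 10 mg/kg arrays, so that no MPH array reached the lowest saline array. The log2 difference from saline was -0.38 (SE 0.10, 95% interval -0.61 to -0.16, 0.766-fold) in MPH 1 mg/kg and -0.41 (SE 0.10, interval -0.64 to -0.19, 0.750-fold) in MPH 10 mg/kg, with limma adjusted p of 0.392 and 0.414. It stayed between -0.46 and -0.29 and between -0.49 and -0.32 when any array was left out, and was -0.30 and -0.37 without saline array 2 and MPH 10 mg/kg array 1 together. A second, dimmer probe set of the gene (mean 6.97) had differences of 0.06 and 0.09 (SE 0.17 each), and the third was at background (2.98), so the difference belongs to the brightest probe set and not to all probe sets of Syngr1.

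The other members of the vesicle membrane gave smaller or less regular differences. Snap91 and Sv2a, both bright, differed from saline by 0.07 and 0.07 in MPH 1 mg/kg and by 0.03 and -0.02 in MPH 10 mg/kg, with all 4 intervals within 0.3 of 0. Syn2, a synapsin that ties vesicles to actin, was 9.87, 9.81 and 10.06 in saline, 9.73, 10.39 and 9.79 in MPH 1 mg/kg and 10.53, 10.14 and 10.23 in MPH 10 mg/kg arrays. All MPH 10 mg/kg arrays were thus above all saline arrays, by 0.39 (SE 0.19, adjusted p = 0.557 by limma). The fitted difference was 0.20 without MPH 10 mg/kg array 1 and -0.01 without that array and saline array 2. Such a fit keeps the replicate number and so also draws on the MPH 1 mg/kg arrays. The values left in the latter fit, 10.14 and 10.23 against 9.87 and 10.06, still did not overlap. Other probe sets of Syn2 with means of 8.03 and 9.57 were also higher than saline in every MPH 10 mg/kg array, by 0.46 (SE 0.19) and 0.34 (SE 0.11), one with a mean of 8.38 had 0.17 (SE 0.12), and the last was near background. Syn3 differed by 0.23 in MPH 10 mg/kg, with an interval of -0.08 to 0.54, but its other probe sets (means 5.56 and 3.94) had -0.30 and -0.21, and the mean over its probe sets was -0.09.

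Among the synaptotagmins, 12 of 15 had a negative difference in MPH 1 mg/kg (80.0%, beside 56.2% of all genes), with a median of -0.131, and 9 of 15 in MPH 10 mg/kg, with a median of -0.013. These counts take the brightest probe set of each gene and include Syt6, Syt8 and Syt10, which were near background. In MPH 1 mg/kg the other probe sets of Syt1, Syt2 and Syt4 were above 0. That of Syt13 was below 0, and those of Syt6 lay on both sides. Syt13, an atypical synaptotagmin without calcium binding, was 9.82, 10.02 and 9.80 in saline arrays, 9.64, 9.49 and 9.71 in MPH 1 mg/kg arrays and 9.64, 9.49 and 9.35 in MPH 10 mg/kg arrays. The MPH arrays were all below the saline arrays, by -0.27 (SE 0.11, adjusted p = 0.472 by limma) in MPH 1 mg/kg and by -0.39 (SE 0.11, adjusted p = 0.424) in MPH 10 mg/kg. The difference in MPH 1 mg/kg was -0.17 without saline array 2 and likewise without MPH 1 mg/kg array 2. The other probe set of Syt13 (mean 6.57) had the same sign, with -0.21 in each group (SE 0.11 each).

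Syt3 and Syt5, calcium-binding synaptotagmins found outside as well as on synaptic vesicles, had unadjusted p-values of at most 0.05 in MPH 1 mg/kg and not in MPH 10 mg/kg. Their means over the 9 arrays were 4.98 and 5.88. Syt3 had 4.84, 4.83 and 4.67 in MPH 1 mg/kg arrays, against 5.27, 4.97 and 5.36 in saline arrays, a difference of -0.42 (SE 0.14), and -0.23 (SE 0.14) in MPH 10 mg/kg. Syt5 had 5.41, 5.61 and 5.83 in MPH 1 mg/kg arrays, against 6.01, 6.26 and 5.78 in saline arrays, which overlap, a difference of -0.40 (SE 0.16), and -0.02 (SE 0.16) in MPH 10 mg/kg. Syt1, the main sensor of fast release, differed by -0.16 (interval -0.39 to 0.07) in MPH 1 mg/kg and by -0.01 (interval -0.24 to 0.22) in MPH 10 mg/kg.

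**Figure D3:**
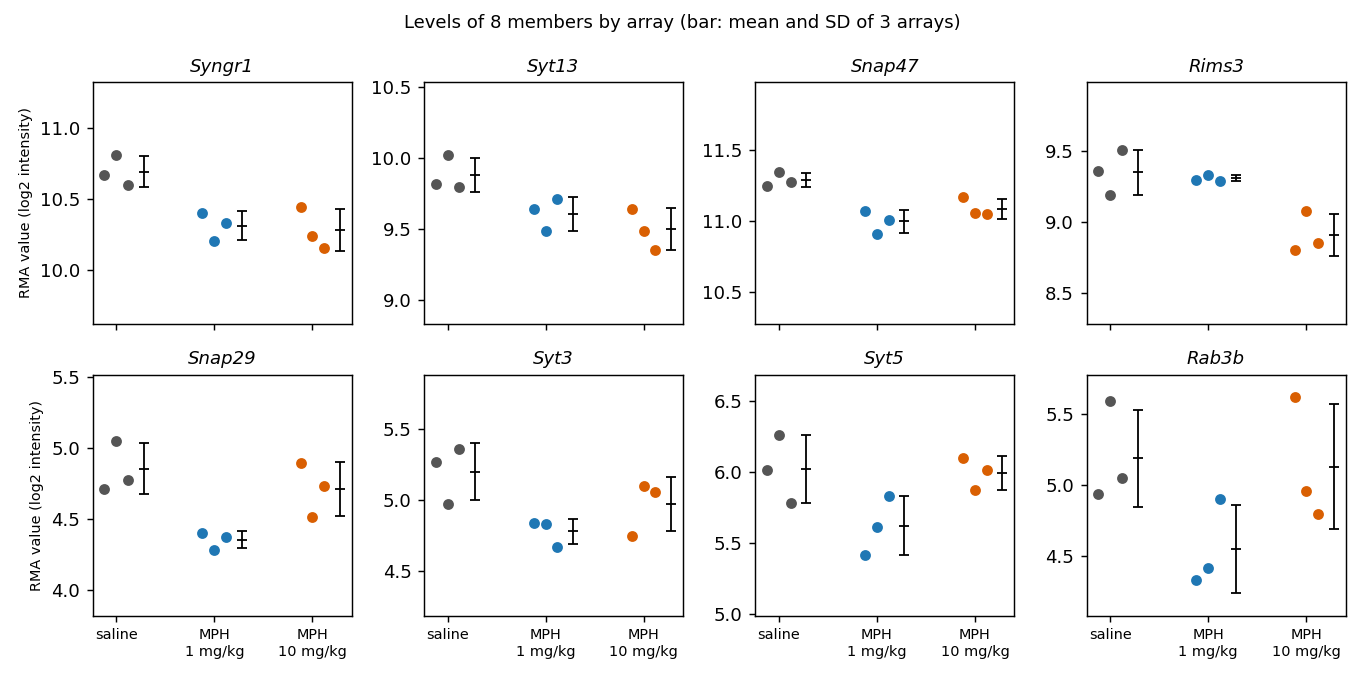
RMA log2 intensity (vertical axis, spanning the same range in each panel) of 8 members in the saline, MPH 1 mg/kg and MPH 10 mg/kg arrays, one point per array, with the mean and SD of 3 arrays beside them. Syngr1, Syt13 and Snap47 are lower than saline in every MPH array, Rims3 in every MPH 10 mg/kg array, and Rab3b is spread widely within each group.

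Snap47, a SNAP-25 relative found on internal membranes, had the smallest p of the plasma membrane SNAREs in MPH 1 mg/kg. Its values were 11.25, 11.35 and 11.28 in saline, 11.07, 10.91 and 11.01 in MPH 1 mg/kg and 11.17, 11.06 and 11.05 in MPH 10 mg/kg arrays, without overlap with saline in either group. The differences were -0.30 (SE 0.08, 0.813-fold, adjusted p = 0.397 by limma) and -0.20 (SE 0.08, 0.870-fold, adjusted p = 0.494), and stayed between -0.36 and -0.24 and between -0.26 and -0.14 without any single array. The gene has 1 probe set. Snap25 itself, the SNARE of transmitter release, was 12.55, 12.52 and 12.65 in saline, 12.67, 12.63 and 12.61 in MPH 1 mg/kg and 12.61, 12.60 and 12.57 in MPH 10 mg/kg arrays, with differences of 0.06 (interval -0.10 to 0.23) and 0.02 (interval -0.15 to 0.18).

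Stx1a and Snap29 lay closer to background. Stx1a had 5.26, 5.15 and 5.30 in MPH 10 mg/kg arrays, against 5.38, 5.70 and 5.51 in saline arrays, -0.29 (SE 0.10, adjusted p = 0.466 by limma), which was -0.17 without saline array 2, and -0.19 (SE 0.10) in MPH 1 mg/kg. Snap29, a SNARE of endosomes and autophagosomes, had 4.40, 4.28 and 4.37 in MPH 1 mg/kg arrays, against 4.71, 5.05 and 4.77 in saline arrays, -0.49 (SE 0.13, adjusted p = 0.397). Its other probe sets, which are nearer to background (means 4.15 and 4.02), had 0.32 and 0.10 in the same comparison, so the probe sets of Snap29 disagree in sign.

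Vesicle SNAREs showed 1 member at an unadjusted p of 0.05 or less. Vamp4, which works between the Golgi and endosomes, had 9.87, 9.75 and 9.88 in MPH 1 mg/kg arrays, against 9.95, 10.21 and 10.04 in saline arrays, -0.23 (SE 0.10, adjusted p = 0.472 by limma), and -0.05 (SE 0.10) in MPH 10 mg/kg. Without saline array 2 the difference in MPH 1 mg/kg was -0.12, and another probe set of Vamp4 with nearly the same signal (mean 9.58) had 0.03 (SE 0.07). Vamp2, the SNARE of fast release, differed by -0.06 (interval -0.29 to 0.18) in MPH 1 mg/kg and by -0.13 (interval -0.37 to 0.10) in MPH 10 mg/kg.

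The syntaxins of internal membranes differed by at most 0.2 in either direction, with 6 of 8 below 0 in MPH 1 mg/kg (75.0%, beside 56.2% of all genes) and 5 of 8 in MPH 10 mg/kg (62.5%, beside 56.0%). Stx18, of the endoplasmic reticulum, was 8.20, 8.0 and 8.08 in MPH 1 mg/kg arrays, against 8.22, 8.32 and 8.29 in saline arrays, -0.19 (SE 0.08). Stx7, of late endosomes, and Stx5a, of the path from the endoplasmic reticulum to the Golgi, did not overlap with saline in either MPH group, but their differences were small. In MPH 1 mg/kg and MPH 10 mg/kg these were -0.13 and -0.15 for Stx7 (SE 0.07 each) and -0.12 and -0.08 for Stx5a (SE 0.08 each). For Stx7 they were -0.08 and -0.09 without saline array 3, and for Stx5a -0.06 without MPH 1 mg/kg array 2 and -0.05 without MPH 10 mg/kg array 3. The separation of Stx5a rests on saline arrays that agree closely (8.49, 8.48 and 8.47).

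Among the docking, priming and clamping proteins, Rims3 had the smallest p in MPH 10 mg/kg. It encodes a short RIM protein of the active zone, the site where vesicles dock. Its values were 9.36, 9.19 and 9.51 in saline, 9.30, 9.33 and 9.29 in MPH 1 mg/kg and 8.80, 9.08 and 8.85 in MPH 10 mg/kg arrays, so that the MPH 10 mg/kg arrays lay below the arrays of both other groups. The difference was -0.44 (SE 0.11, 0.738-fold, adjusted p = 0.424 by limma) from saline and -0.40 (SE 0.11, adjusted p = 0.774) from MPH 1 mg/kg, against -0.04 (SE 0.11) for MPH 1 mg/kg against saline. It stayed between -0.57 and -0.34 from saline without any single array, and was -0.54 without saline array 2 and MPH 10 mg/kg array 1. The gene has 1 probe set. Rims1 and Rims2, the long RIM scaffolds, differed by 0.16 or less in both comparisons with saline.

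Stxbp5, which encodes tomosyn, an inhibitor of SNARE assembly, was the 1 member higher in MPH 10 mg/kg at an unadjusted p of 0.05 or less. Its arrays were 9.07, 8.97 and 8.91, against 8.75, 8.64 and 8.83 in saline, 0.24 (SE 0.09, adjusted p = 0.485 by limma). The fitted difference was 0.07 without saline array 2 and MPH 10 mg/kg array 1, where the MPH 1 mg/kg arrays enter through the replicate number. The values left, 8.97 and 8.91 against 8.75 and 8.83, still did not overlap. Rab3b, a vesicle GTPase, had the largest difference of all members in MPH 1 mg/kg, -0.65, with the widest interval (-1.28 to -0.01). Its values were 4.94, 5.59 and 5.05 in saline, 4.33, 4.42 and 4.90 in MPH 1 mg/kg and 5.62, 4.96 and 4.80 in MPH 10 mg/kg arrays, so saline array 2 and MPH 10 mg/kg array 1 were high in their groups, and without saline array 2 the difference was -0.38. Cplx1, which clamps and promotes fusion, differed by 0.03 (interval -0.22 to 0.28) in MPH 1 mg/kg and by -0.06 (interval -0.31 to 0.19) in MPH 10 mg/kg.

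Between the MPH groups, 3 members were higher and 2 lower in MPH 10 mg/kg than in MPH 1 mg/kg at an unadjusted p of 0.05 or less, where 2.84% and 2.98% of all genes were (4.41% and 2.94% of members). Arrays did not overlap for 9 members higher and 3 lower, against 8.9% and 8.67% of all genes (13.2% and 4.41% of members). Beside Rims3, Stxbp2 was lower, with 5.64, 5.72 and 5.85 in MPH 10 mg/kg arrays, against 6.13, 6.14 and 5.98 in MPH 1 mg/kg arrays, -0.35 (SE 0.10). It encodes Munc18-2, the Munc18 protein of non-neuronal secretion. Syt16, an atypical synaptotagmin, was higher by 0.37 (SE 0.13), with 7.25, 7.02 and 7.09 in MPH 10 mg/kg arrays, against 6.84, 6.72 and 6.69 in MPH 1 mg/kg arrays. Snap29 and Syt5 were higher by 0.36 and 0.37, and the adjusted p of all 5 was 0.774 by limma. The 3 members higher were 1 without MPH 10 mg/kg array 1, 6 without MPH 10 mg/kg array 2 and 8 without saline array 2, and the 2 lower were 5 without MPH 10 mg/kg array 1 and 4 without MPH 10 mg/kg array 2.

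Several members varied more between arrays of a group than between groups. Saline array 2 held the highest or lowest value of 45.6% of the members, MPH 1 mg/kg array 2 of 35.3% and MPH 10 mg/kg array 1 of 29.4%, against 10.3% to 26.5% for the other 6 arrays. For these 3 arrays the shares were 47.5%, 35.6% and 32.2% of the 59 members above background. Over the 11421 genes above background they were 31.0%, 30.9% and 35.1%. Syt7, a slow, high-affinity calcium sensor, had 10.95 in saline array 2 and 11.04 in MPH 10 mg/kg array 1 against 11.22 to 11.56 in the other 7, and Vamp1, a VAMP of brainstem and spinal neurons, had 10.02 and 10.27 in these arrays against 10.39 to 10.68, as did Rims1, with 9.54 and 9.28 against 9.68 to 9.95. These are the arrays in which the mean of the thalamus markers was lowest. Syt17 was high there instead, at 7.59 and 7.5, against 6.90 to 7.34. In MPH 10 mg/kg array 1, where the mean of the cortex and hippocampus markers was highest, Cplx2 had 11.44 against 10.67 to 11.19 in the other 8 arrays and Sv2b, an SV2 protein, had 9.93 against 9.01 to 9.5. The other probe sets of Cplx2 (means 9.35 and 7.7) were highest in saline array 2 instead, at 9.62 and 8.15. They had 9.52 and 8.04 in MPH 10 mg/kg array 1. Rims1 and Sv2b were chosen for mention after their values were seen. The part of neighbouring tissue in these values was not tested.

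**Figure D4:**
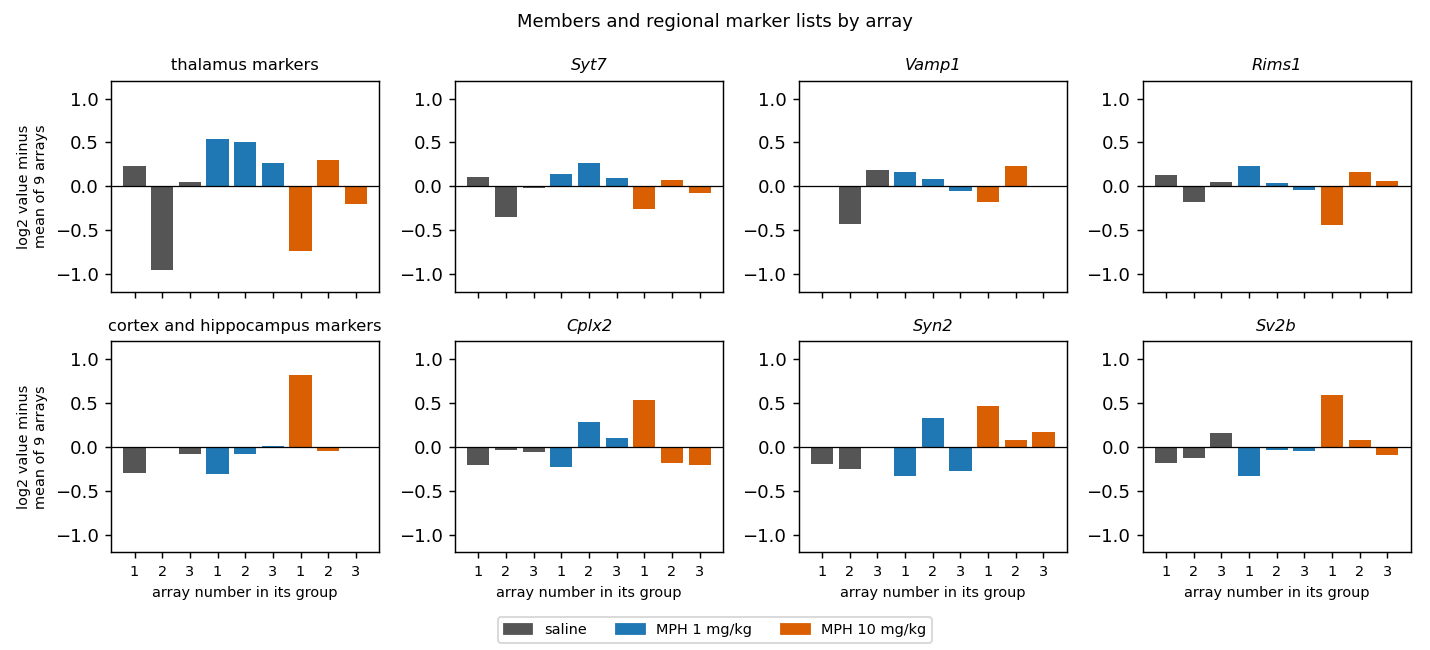
Mean of the thalamus and of the cortex and hippocampus markers and values of 6 members, as the log2 value minus the mean of the 9 arrays (vertical axis), for arrays 1 to 3 of the saline, MPH 1 mg/kg and MPH 10 mg/kg groups. Only the brightest probe set of each member is drawn. Syt7, Vamp1 and Rims1 are low in saline array 2 and MPH 10 mg/kg array 1 as the mean of the thalamus markers is, and Cplx2, Syn2 and Sv2b are highest in MPH 10 mg/kg array 1 as the mean of the cortex and hippocampus markers is.

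Other genes of the vesicle cycle, listed apart from the members, were counted in the same way. Of 27 further vesicle and active zone genes, 4 were lower and 0 higher in MPH 1 mg/kg, and 2 lower and 1 higher in MPH 10 mg/kg, at an unadjusted p of 0.05 or less, with medians of -0.054 and -0.005. The shares were 14.8% lower and 0% higher in MPH 1 mg/kg, beside 7.4% and 3.32% of all genes, and 7.41% lower and 3.70% higher in MPH 10 mg/kg, beside 6.95% and 3.28%. Arrays did not overlap with saline for 8 of the 27 lower (29.6%, beside 15.3% of all genes) and 1 higher in MPH 1 mg/kg, and for 4 lower (14.8%, beside 15.8%) and 1 higher in MPH 10 mg/kg. Of 16 vesicle endocytosis genes, 0 were lower or higher in MPH 1 mg/kg and 2 were lower (12.5%, beside 6.95% of all genes) in MPH 10 mg/kg, with medians of -0.036 and -0.009. Arrays did not overlap with saline for 4 of the 16 lower in MPH 1 mg/kg and for 3 lower (18.8%) and 2 higher (12.5%) in MPH 10 mg/kg. None passed the adjusted threshold. Picked after their values were seen, Cadps2, which encodes a priming factor of dense-core vesicles, was 9.82 to 9.88 in saline, 9.42 to 9.56 in MPH 1 mg/kg and 9.66 to 9.75 in MPH 10 mg/kg arrays (-0.33 and -0.14, limma adjusted p of 0.378 and 0.566). Pclo, an active zone scaffold, was 9.38 to 9.56 in saline, 9.60 to 9.74 in MPH 1 mg/kg and 9.65 to 9.84 in MPH 10 mg/kg arrays (0.21 and 0.28, limma adjusted p of 0.492 and 0.449).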

How the data were processed

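The authors deposited log2 intensities from Robust Multichip Average, a method of background correction, quantile normalization and probe set summary. Its version is not given in the sources used here. The study's methods also describe a ComBat correction over the 3 replicates. Whether the deposited log2 values include it is not stated. Fitted without the replicate number, they gave 54 and 115 passing probe sets in MPH 1 mg/kg and MPH 10 mg/kg against saline. The study reports the same numbers of genes, with the doses the other way round. If the values already hold the correction, the replicate number in the model adjusts for the same factor again. Of 45141 probe sets, 104 controls were left out, and the platform annotation gives a single gene for 28898, several for 551 and none for 15588.

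The other 45037 probe sets entered 1 limma fit (version 3.58.1, R 4.3.3, lmFit and eBayes, two-sided) with group and, following the methods' batch, replicate number as factors. Adjusted p-values (Benjamini-Hochberg) cover all of these probe sets. Deviations from the group means correlated at -0.626 to -0.132 between arrays of the same number. The number is in the model because the methods name a batch of replicates, and these values give no sign that it marks a shared deviation. They cannot show whether there was one before a ComBat correction, which is meant to remove it. The members and gene lists were chosen with earlier results of these data known. Named genes are, for each comparison, up to 8 members in each direction with the smallest p among those moving alike in all 3 replicate numbers, members not overlapping with saline in both MPH groups, the 2 brightest of each role and the 3 with the largest SD. Names outside this rule were chosen after their values were seen. Alternatives were a fit without the block, only the groups compared, centring, a second quantile normalization, the brighter probe sets, an intensity trend with the robust option, averaged probe sets and each array left out. A fit without saline array 2 and MPH 10 mg/kg array 1, where the mean of the thalamus markers was lowest, was chosen after seeing the data. Fits with arrays left out keep the replicate number, so their differences also draw on the arrays of the group not compared. Precision is limited by the 9 arrays.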

Additional observations from a re-analysis of the deposited data

Results flagged for a closer look

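Stxbp2 and Syt16 were flagged because every array of the MPH groups lay on opposite sides of the saline mean. For Stxbp2, the MPH 10 mg/kg arrays were all below the saline mean of 5.94 and the MPH 1 mg/kg arrays all above it, and MPH 10 mg/kg minus MPH 1 mg/kg was -0.35 (SE 0.10). Its other probe set (mean 4.70) had 0.04 in the same comparison. For Syt16, the MPH 10 mg/kg arrays were all above the saline mean of 6.94 and the MPH 1 mg/kg arrays all below it, and MPH 10 mg/kg minus MPH 1 mg/kg was 0.37 (SE 0.13). The saline arrays of Syt16 spread over 6.69, 7.10 and 7.04, so that both MPH groups overlap with them. In limma the adjusted p of either difference was 0.774, and neither passed. The difference was not tested in any other way.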

How the results depend on the processing

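Over 48 named comparisons of single members and 811 values under the alternatives, 0 passed an adjusted p of 0.05 (lowest 0.0778, highest 0.999) and 9 had the other sign, all with differences of 0.09 or less. These were, for Cplx1 in MPH 1 mg/kg against saline, -0.02 with the mean of its probe sets, -0.02 and 0 without saline array 2 or 3 and -0.03 without MPH 1 mg/kg array 1 (0.11 at the highest, without saline array 1). In MPH 10 mg/kg against saline they were -0.01 for Stx12 without MPH 10 mg/kg array 3 and 0 with the mean of its probe sets, -0.09 for Syn3 with the mean of its probe sets, and 0.01 for Rab3c and -0.01 for Syn2 without saline array 2 and MPH 10 mg/kg array 1.

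Without the replicate block, 54 probe sets passed in MPH 1 mg/kg against saline and 115 in MPH 10 mg/kg against saline, none of them a member. The members at an unadjusted p of 0.05 or less then numbered 2 higher and 12 lower in MPH 1 mg/kg, 2 higher and 9 lower in MPH 10 mg/kg against saline, and 10 higher and 2 lower in MPH 10 mg/kg against MPH 1 mg/kg. At an adjusted p of 0.05, 0 members passed with the replicate block or without it. With only the groups compared in the fit, 1 member was higher in MPH 1 mg/kg, 2 in MPH 10 mg/kg and 5 in MPH 10 mg/kg against MPH 1 mg/kg. The intensity trend with the robust option passed 2 probe sets in MPH 1 mg/kg and 1 in MPH 10 mg/kg against saline, and gave 6 members higher in MPH 10 mg/kg against MPH 1 mg/kg. In MPH 1 mg/kg, 5 members were lower among the brighter probe sets and 4 when probe sets were averaged per gene, against 9. The share of all genes called is not given for these fits, nor for those below with arrays left out. Their counts therefore show only how the numbers move with the processing, and not whether the members stand apart from other genes.

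Leaving out 1 array at a time gave 0 to 2 members higher and 4 to 11 lower in MPH 1 mg/kg, 0 to 3 higher and 4 to 6 lower in MPH 10 mg/kg, and 1 to 8 higher and 2 to 5 lower between the MPH groups. The count of 9 lower was 5 without saline array 2 or saline array 3 and 4 without MPH 1 mg/kg array 2. The median over the members ran from -0.061 to -0.013, from -0.03 to -0.003 and from -0.002 to 0.036, and the probe sets passing from 0 to 1, 0 to 1 and 0 to 0. Without saline array 2 and MPH 10 mg/kg array 1, the median was -0.009 in MPH 1 mg/kg, 3 members were lower in MPH 10 mg/kg and 4 were lower in MPH 10 mg/kg than in MPH 1 mg/kg. Centring and a second quantile normalization changed no count past these limits. The cause of these shifts was not tested.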

Other observations

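Minor probe sets of some bright members differed from the probe set that stands for the gene, and are given as values chosen after they were seen. A dim probe set of Syt1 had 6.35, 6.37 and 6.11 in saline, 6.5, 6.68 and 6.53 in MPH 1 mg/kg and 6.87, 6.75 and 6.51 in MPH 10 mg/kg arrays. It was higher in every MPH array, by 0.30 and 0.44 (SE 0.09 each, limma adjusted p of 0.416 and 0.385), while the brightest probe set of Syt1 differed by -0.16 and -0.01. A second probe set of Syngr3, a synaptogyrin, had 7.73, 7.39 and 7.52 in saline, 7.20, 7.20 and 7.23 in MPH 1 mg/kg and 7.02, 7.30 and 7.01 in MPH 10 mg/kg arrays, with -0.34 and -0.44 (SE 0.12 each, adjusted p of 0.429 and 0.424) beside 0.11 and -0.01 for the brightest.

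A probe set of Rab3c close to background (mean 4.51) had 5.33, 4.84 and 4.87 in MPH 1 mg/kg arrays, against 3.95, 3.98 and 4.13 in saline arrays, a difference of 0.99 (SE 0.25, limma adjusted p of 0.392), where the brightest probe set of Rab3c had -0.02. Of the 34 members with another probe set above background, 19 had one with the other sign in MPH 1 mg/kg against saline and 16 in MPH 10 mg/kg against saline.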
